A study of Mus musculus with 6 samples.

Results

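The genes described here carry pyruvate, fatty acids, ketone bodies and glutamine into the oxidative metabolism of brain endothelial cells, and a list of 44 of them was read in 6 libraries. The list was given by symbol, with no measured value in its rule, but it was chosen with earlier results of these data known. In it, 18 genes bring pyruvate into the mitochondrion and turn the TCA cycle, and 18 carry out mitochondrial beta-oxidation of fatty acids. A further 3 use ketone bodies and 5 handle glutamine, glutamate and their transaminations. All 44 were among the 23329 symbols of the count files, Mpc1 and Mpc2 under the older symbols Brp44l and Brp44, and all 44 passed the filter on low counts that left 14838 genes to test. The study compared 3 libraries labelled GLUT1EC-/-, from mice in which the glucose carrier Glut1 (gene Slc2a1) was deleted in endothelial cells, with 3 from WT littermates. Mice of both groups were C57BL/6, 8 weeks old, and their brain endothelial cells were bound to magnetic beads and lysed without culture. The labels name no Cre line, no time of deletion and no sex. Replicates are separate animals by their numbers.

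As background, an endothelial cell can make ATP by glycolysis alone, and its mitochondria are also fed to keep the TCA cycle supplied with carbon for nucleotides, aspartate and redox balance. Pyruvate enters through the mitochondrial pyruvate carrier and becomes acetyl-CoA or oxaloacetate, long fatty acids enter as carnitine esters and are shortened to acetyl-CoA, ketone bodies are activated at the expense of succinyl-CoA, and glutamate joins the cycle as 2-oxoglutarate. Glutamine synthetase (Glul) is best known in brain from astrocytes, and brain capillaries also hold its mRNA. The comparison asks how the mRNAs of these routes stand in endothelial cells meant to lack their main glucose carrier.

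Library totals ran between 35323299 and 37868681 counts in the GLUT1EC-/- group and between 31874662 and 39424384 counts in the WT group. Levels are given as CPM, counts scaled to a common library size with TMM factors for library composition. The targeted gene was not lower: Slc2a1 (GRCm38 chromosome 4, 119108711 to 119137983, 10 exons) stood at 3735, 5414 and 3893 CPM in the libraries labelled GLUT1EC-/-, against 3984, 4479 and 4172 CPM in the WT libraries, a difference of 0.05 on the log2 scale with a standard error (SE) of 0.18 and an adjusted p of 0.921 by edgeR. The counts cover the whole gene, and the deleted exons are not given in the sources used here, so this does not check the deletion. Every direction below is that of the libraries labelled GLUT1EC-/-. GLUT1EC-/- library 2 stood apart, with the lowest TMM factor (0.884, against 1.01 to 1.05 in the other 5 libraries) and the lowest or highest level of the 6 libraries for 68.0% of all genes tested.

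A list of 12 endothelial markers included the targeted gene Slc2a1 itself. Their summed level was 20040, 24490 and 20100 CPM in GLUT1EC-/- libraries and 21080, 21050 and 21990 CPM in WT libraries. Of the 12, 0 were called by edgeR (2 at an unadjusted p under 0.05). Other cells were also present. Summed levels of 12 microglial markers were 1007, 779 and 1614 CPM in GLUT1EC-/- libraries against 507, 570 and 602 CPM in WT libraries, and 3 of them were called higher: C1qb, C1qc and Trem2. Summed levels of 8 fibroblast markers were 263, 230 and 448 CPM in GLUT1EC-/- libraries against 124, 149 and 147 CPM in WT libraries, with Dcn called higher. Of 10 astrocyte markers, Gfap was called higher, at 36.4, 36.6 and 59.8 CPM in GLUT1EC-/- libraries against 5.60, 5.90 and 5.45 CPM in WT libraries, and the summed level, Gfap included, was 222, 270 and 256 CPM in GLUT1EC-/- libraries against 182, 209 and 178 CPM in WT libraries. Summed levels of 10 oligodendrocyte markers were 334, 366.5 and 326 CPM in GLUT1EC-/- libraries against 445, 373 and 369.5 CPM in WT libraries. The lists of neurons, pericytes, smooth muscle, red cells and choroid plexus held 0 calls by edgeR (3 neuron or pericyte markers higher and 2 lower at an unadjusted p under 0.05), but choroid plexus markers summed to 7681, 4062 and 6564 CPM in GLUT1EC-/- libraries, against 5190, 6040 and 8477 CPM in WT libraries. Red cell markers summed to 1067, 104 and 345 CPM in GLUT1EC-/- libraries, against 852.5, 761 and 1040 CPM in WT libraries. These sums include both Hba-a1 and Hba-a2, which had the same level in every library and are not independent values. The part of these cells in any difference below was not tested. In such bulk libraries, fewer cells of a type and less RNA per cell cannot be told apart.

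None of the 44 fuel genes passed the test. edgeR's quasi-likelihood test called 0 of 44 at an adjusted p under 0.05, in a fit that called 1.31% of all genes tested, and limma-voom also called 0. At an unadjusted p under 0.05, 6 of the 44 were higher in GLUT1EC-/- libraries (8.16% of all genes tested): Cs, Pcx, Cpt2, Acadl, Eci2 and Bdh1. At the same threshold 0 were lower (6.31% of all genes tested). Without GLUT1EC-/- library 2 the number of members at an unadjusted p under 0.05 (edgeR) was 13, beside 2971 of the 15053 genes tested. It was 3 without GLUT1EC-/- library 1 (1746 of 14998 genes) and 3 without GLUT1EC-/- library 3 (2883 of 15072). Without WT library 1 it was 1 (1248 of 15112) and without WT library 2 it was 2 (1444 of 15122). Without WT library 3 it was 5 (1768 of 15045). Eci2 was the 1 member called by DESeq2, which called 5.92% of all genes tested, and also the 1 member called by edgeR when GLUT1EC-/- library 2 was left out, a fit that called 5.73%.

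Most estimates were small and lay above 0. The fitted log2 fold change was positive for 30 of 44 fuel genes (68.2%, against 51.5% of all genes tested), with a median of 0.15, against 0.01 over all genes. For 12 members every GLUT1EC-/- library was above every WT library (11.7% of all genes tested do this), and for 0 members every GLUT1EC-/- library was below (11.2%). Without GLUT1EC-/- library 2 these counts were 23 and 1, beside 19.3% and 17.9% of all genes, and without GLUT1EC-/- library 3 they were 15 and 4, beside 19.4% and 19.9%. The 95% interval of the fold change lay within 2-fold in both directions for 41 of the 44 and within 1.5-fold for 25. The other 3 were Slc25a20, Bdh1 and Oxct1. Standard errors ran between 0.116 and 0.45 on the log2 scale, and counts per library between 72 and 103475. The sign of the estimate turned without GLUT1EC-/- library 2 for 9 members (Dld, Suclg1, Fh1, Acads, Acadvl, Hadh, Decr1, Oxct1 and Acat1). It turned without GLUT1EC-/- library 3 for 3 (Acaa2, Etfa and Etfb) and without GLUT1EC-/- library 1 for 2 (Glul and Gpt2). Without WT library 3 it turned for 5 members, and without WT library 1 or WT library 2 for 2 each.

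**Figure D1:**
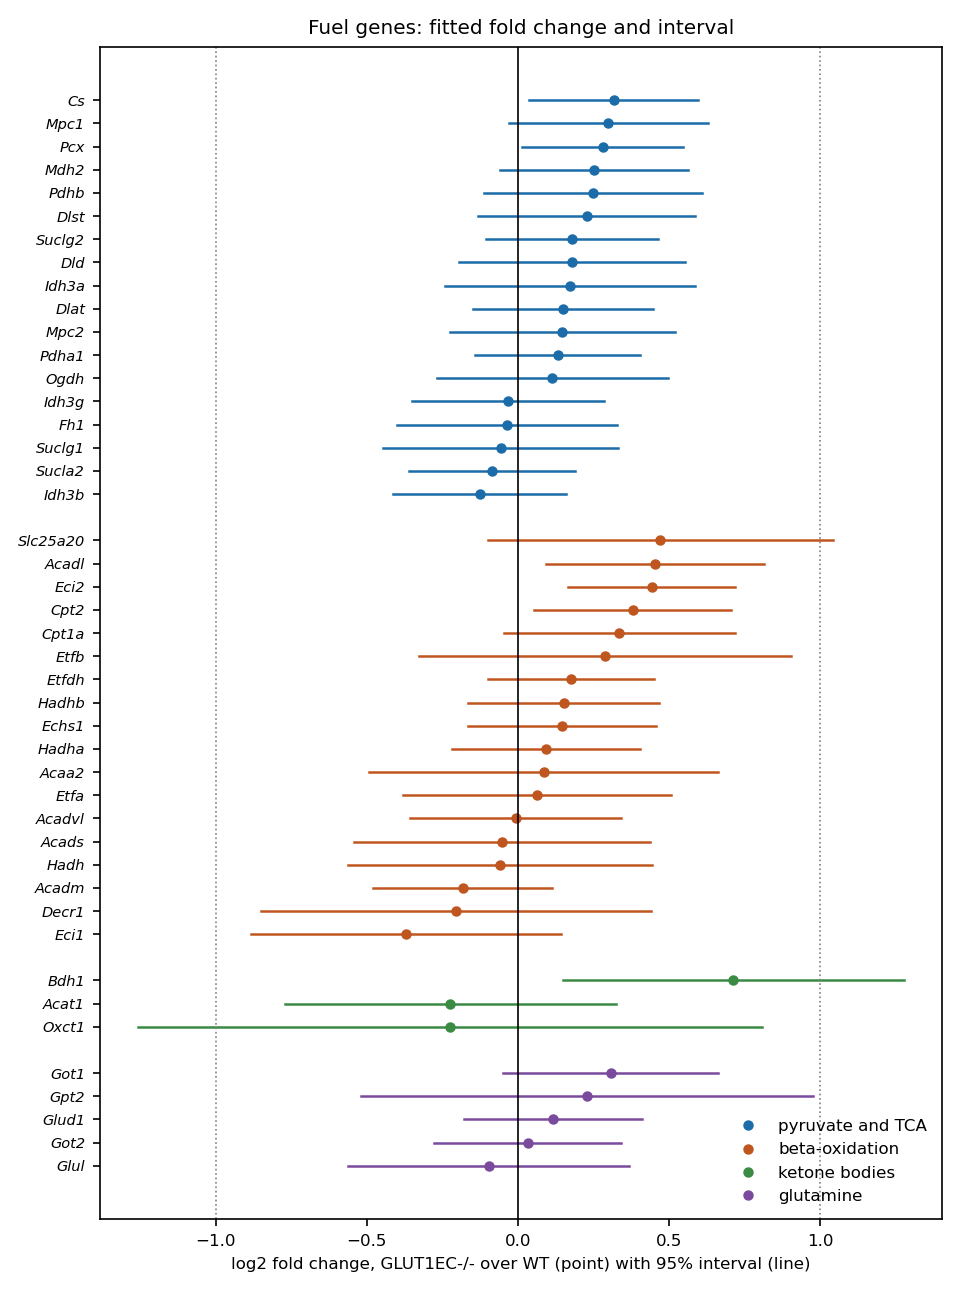
Fitted log2 fold change of the 44 fuel genes, GLUT1EC-/- over WT (points), with its 95% interval (lines), grouped by fuel and ordered by size within it; the dotted lines mark 2-fold. The intervals of 6 genes (Cs, Pcx, Cpt2, Acadl, Eci2 and Bdh1) lie above 0 before any adjustment, and that of Oxct1 is the widest.

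Pyruvate reaches the mitochondrial matrix through a carrier of the subunits Mpc1 and Mpc2. Mpc1 (GRCm38 chromosome 17, 8282904 to 8297661, plus strand, 6 exons) had 16.2, 17.6 and 15.5 CPM in GLUT1EC-/- libraries, against 13.2, 13.4 and 13.6 CPM in WT libraries. The groups did not overlap, and the log2 fold change was 0.30 (adjusted p = 0.394 by edgeR, SE 0.14). Mpc2, the partner subunit, had 14.5, 16.2 and 19.0 CPM in GLUT1EC-/- libraries and 13.7, 15.7 and 15.3 CPM in WT libraries, and here GLUT1EC-/- library 1 lay within the WT range.

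Inside the matrix, pyruvate carboxylase (Pcx) makes oxaloacetate and the pyruvate dehydrogenase complex makes acetyl-CoA. Pcx (chromosome 19, 4510472 to 4621752, plus strand, 21 exons) had 52.5, 47.6 and 52.1 CPM in GLUT1EC-/- libraries, against 42.2, 41.3 and 41.8 CPM in WT libraries. The 3 WT libraries lay within 1 CPM of each other, all below the GLUT1EC-/- libraries. The log2 fold change was 0.28 (SE 0.12, 95% interval 0.02 to 0.55), with an adjusted p of 0.316 by edgeR.

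The 4 listed subunits of pyruvate dehydrogenase had estimates between 0.13 and 0.25 and groups that overlapped. Pdha1, the catalytic alpha subunit, averaged 99.1 ± 4.55 CPM in GLUT1EC-/- libraries and 90.5 ± 5.47 CPM in WT libraries (SD, n = 3 each, as for every mean here). Of its exon positions, 21.2% are shared with Map3k15 on the other strand, and since the strand setting of the counting is not given in the sources used here, its count is uncertain. Pdhb, the beta subunit, had 37.7, 47.0 and 33.9 CPM in GLUT1EC-/- libraries against 35.4, 34.1 and 30.3 CPM in WT libraries, and its estimate of 0.25 was 0.10 without GLUT1EC-/- library 2. Dlat, which passes on the acetyl group, averaged 34.6 ± 1.24 CPM in GLUT1EC-/- libraries and 31.2 ± 3.12 CPM in WT libraries. Dld, the dehydrogenase that this complex shares with the 2-oxoglutarate dehydrogenase complex, had 54.4, 74.7 and 51.3 CPM in GLUT1EC-/- libraries against 54.0, 53.1 and 52.5 CPM in WT libraries. Without GLUT1EC-/- library 2 the estimate for Dld was -0.01.

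Citrate synthase (Cs), which joins acetyl-CoA to oxaloacetate, had the largest estimate of the 18 listed pyruvate and TCA genes. Cs (chromosome 10, 128337734 to 128362479, plus strand, 11 exons) had 163, 171 and 152 CPM in GLUT1EC-/- libraries, against 122, 132.5 and 136 CPM in WT libraries. The groups did not overlap. The log2 fold change was 0.32 (SE 0.12, 95% interval 0.04 to 0.60), a fold of 1.25, with an adjusted p of 0.282 by edgeR, the lowest adjusted p of the 18 genes. Within the animals numbered in the 200s (GLUT1EC-/- library 1, WT libraries 1 and 2) the difference of mean log2 CPM was 0.36. Within those numbered in the 500s (GLUT1EC-/- libraries 2 and 3, WT library 3) it was 0.24. Such values within a series, here and below, were not tested, and each rests on a single library of 1 group.

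The next steps gave small estimates. Of the 3 subunits of NAD-dependent isocitrate dehydrogenase, Idh3a, the catalytic alpha subunit, was estimated at 0.17 (0.02 without GLUT1EC-/- library 3, 0.33 without GLUT1EC-/- library 2 and -0.02 within the 500s), Idh3b at -0.13 and Idh3g at -0.03 (adjusted p between 0.683 and 0.928, edgeR). Of the 2-oxoglutarate dehydrogenase complex, Ogdh, the first enzyme, had 335, 238 and 341 CPM in GLUT1EC-/- libraries and 267, 280 and 299 CPM in WT libraries. GLUT1EC-/- library 2 was thus the lowest of the 6 for Ogdh, while for the second enzyme, Dlst, it was the highest, with 87.8, 122 and 89.1 CPM in GLUT1EC-/- libraries against 84.3, 85.9 and 85.2 CPM in WT libraries. Without that library the estimates were 0.26 for Ogdh and 0.05 for Dlst, against 0.11 and 0.23 with it.

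Succinyl-CoA synthetase pairs the common subunit Suclg1 with Suclg2 in its GTP-forming type or with Sucla2 in its ATP-forming type. Suclg2 had 26.5, 24.6 and 24.8 CPM in GLUT1EC-/- libraries, against 22.5, 22.1 and 22.4 CPM in WT libraries, without overlap (log2 fold change 0.18, SE 0.12, adjusted p = 0.556 by edgeR). Suclg1 and Sucla2 had estimates of -0.06 and -0.09 and overlapping groups. Fumarase (Fh1) averaged 26.7 ± 4.59 CPM in GLUT1EC-/- libraries and 27.4 ± 0.961 CPM in WT libraries.

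Mitochondrial malate dehydrogenase (Mdh2), which closes the cycle, had 138, 166 and 135 CPM in GLUT1EC-/- libraries, against 115, 123 and 130 CPM in WT libraries. The groups did not overlap, and the log2 fold change was 0.25 (adjusted p = 0.449 by edgeR, SE 0.14). Over the 18 genes of pyruvate and the TCA cycle, 13 estimates were positive (51.5% of all genes tested) and the median was 0.16. The groups did not overlap for 6 genes, all higher in GLUT1EC-/- libraries (11.7% of all genes tested do this). The median was 0.13 within the 200s and 0.16 within the 500s.

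Of the 4 fuels, beta-oxidation held the gene with the lowest p-value, Eci2, and estimates that ran between -0.37 and 0.47 on the log2 scale. The carnitine shuttle brings long-chain acyl groups across the inner membrane. Cpt1a, its rate-limiting outer-membrane enzyme (chromosome 19, 3322334 to 3385733, plus strand, 19 exons), had 255, 222 and 326 CPM in GLUT1EC-/- libraries, against 197, 226 and 213.5 CPM in WT libraries. GLUT1EC-/- library 2 lay below WT library 2, and the log2 fold change was 0.34 (adjusted p = 0.414 by edgeR, SE 0.17), or 0.17 without GLUT1EC-/- library 3.

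Slc25a20, the carnitine-acylcarnitine carrier of the inner membrane, had 29.6, 20.8 and 41.4 CPM in GLUT1EC-/- libraries and 18.8, 21.9 and 25.6 CPM in WT libraries. Its estimate of 0.47 was the largest of the 18, with an SE of 0.25, and it was 0.19 without GLUT1EC-/- library 3. Cpt2 (chromosome 4, 107903981 to 107923610, minus strand, 5 exons), which frees the acyl-CoA in the matrix, had 25.7, 28.0 and 27.5 CPM in GLUT1EC-/- libraries, against 18.2, 21.2 and 22.9 CPM in WT libraries. The groups did not overlap for Cpt2. Its log2 fold change was 0.38 (SE 0.14, 95% interval 0.05 to 0.71), with an adjusted p of 0.269 by edgeR.

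The spiral begins with acyl-CoA dehydrogenases, each preferring a chain length. Acadl, for long chains (chromosome 1, 66830839 to 66863277, minus strand, 11 exons), had 93.6, 89.8 and 119 CPM in GLUT1EC-/- libraries, against 66.2, 71.1 and 83.3 CPM in WT libraries. All GLUT1EC-/- libraries were above all WT libraries. The log2 fold change was 0.45 (SE 0.16, 95% interval 0.09 to 0.81), a fold of 1.37, with an adjusted p of 0.237 by edgeR.

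The other 3 acyl-CoA dehydrogenases had estimates at or below 0. Acadm, for medium chains, had 58.7, 52.4 and 63.6 CPM in GLUT1EC-/- libraries and 62.2, 65.3 and 70.8 CPM in WT libraries (log2 fold change -0.18, SE 0.13). Acads, for short chains, was estimated at -0.05 and Acadvl, for very long chains, at -0.01. Of the exon positions of Acadvl, 45% are shared with Dvl2 on the other strand, so its count is uncertain. The contrast between Acadl and the others was not tested.

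The trifunctional protein, made of Hadha and Hadhb, takes long chains through the remaining steps. Hadha had 113.5, 96.0 and 125 CPM in GLUT1EC-/- libraries and 103, 105.5 and 105 CPM in WT libraries. Hadhb had 34.9, 41.9 and 44.7 CPM in GLUT1EC-/- libraries and 35.2, 38.6 and 35.6 CPM in WT libraries. The partners are neighbours on chromosome 5, transcribed away from each other from RefSeq start sites 273 bases apart. Their orders over the GLUT1EC-/- libraries differed: library 2 was the lowest of the 6 for Hadha and library 1 the lowest for Hadhb.

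For shorter chains these steps fall to Echs1, the hydratase, Hadh, the hydroxyacyl-CoA dehydrogenase, and Acaa2, the thiolase. Echs1 averaged 25.8 ± 2.58 CPM in GLUT1EC-/- libraries and 23.3 ± 0.337 CPM in WT libraries. Hadh had 61.2, 42.5 and 80.6 CPM in GLUT1EC-/- libraries against 61.1, 61.3 and 69.5 CPM in WT libraries, and Acaa2 had 46.3, 29.5 and 60.3 CPM against 35.9, 42.5 and 49.8 CPM in WT libraries. For both, GLUT1EC-/- library 2 was the lowest of the 6 libraries and GLUT1EC-/- library 3 the highest.

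Unsaturated fatty acids need an isomerase or a reductase to move their double bonds. Eci2, an enoyl-CoA isomerase found in mitochondria and peroxisomes (chromosome 13, 34977748 to 35027096, minus strand, 10 exons), had 87.3, 88.2 and 92.0 CPM in GLUT1EC-/- libraries, against 62.0, 63.1 and 71.7 CPM in WT libraries. The GLUT1EC-/- libraries lay close together and all above WT. The log2 fold change was 0.44 (SE 0.12, 95% interval 0.17 to 0.72), a fold of 1.36 with an interval of 1.12 to 1.65. Its p was 0.00596 before adjustment and 0.142 after it (edgeR), the lowest of the 44 genes. Over the alternative fits the adjusted p ran between 0.0186 (DESeq2) and 0.558, with 0.303 without GLUT1EC-/- library 1 and 0.315 with the number series as a term. Leaving out GLUT1EC-/- library 2 left the estimate at 0.44 with an adjusted p of 0.0359 (edgeR), and it was 0.48 within the 200s and 0.33 within the 500s.

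The mitochondrial isomerase Eci1 had 16.1, 9.95 and 17.8 CPM in GLUT1EC-/- libraries and 18.7, 17.8 and 20.3 CPM in WT libraries. Its estimate of -0.37 (SE 0.22) was the lowest of the 44, and -0.16 without GLUT1EC-/- library 2. The reductase Decr1 had 24.7, 13.2 and 31.1 CPM in GLUT1EC-/- libraries against 25.6, 24.5 and 29.4 CPM in WT libraries, so that GLUT1EC-/- library 2 was again the lowest and GLUT1EC-/- library 3 the highest.

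Electrons from the acyl-CoA dehydrogenases pass to the flavoprotein of Etfa and Etfb and then to Etfdh, which reduces ubiquinone. Etfb had 40.5, 27.9 and 61.0 CPM in GLUT1EC-/- libraries and 31.9, 32.3 and 41.7 CPM in WT libraries. Etfa had 34.7, 23.8 and 39.9 CPM in GLUT1EC-/- libraries and 29.7, 32.3 and 32.2 CPM in WT libraries, the same library order within the GLUT1EC-/- group. Etfdh had 50.8, 46.82 and 51.1 CPM in GLUT1EC-/- libraries against 42.7, 42.2 and 46.81 CPM in WT libraries, without overlap but by a margin of 0.01 CPM (log2 fold change 0.17, SE 0.12).

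Over the 18 beta-oxidation genes, 12 estimates were positive (51.5% of all genes tested) and the median was 0.12. It was 0.14 within the 200s and 0.02 within the 500s, and without GLUT1EC-/- library 3 it was -0.02. GLUT1EC-/- library 3 was the highest of the 6 libraries for 14 of the 18 (2606 of the 14838 genes tested) and GLUT1EC-/- library 2 the lowest for 10 (34.8% of the genes tested). GLUT1EC-/- library 3 was also the highest for 12 of 12 microglial and 8 of 8 fibroblast markers. GLUT1EC-/- library 2 was the lowest for 7 of 7 choroid plexus, 4 of 4 tested red cell and 7 of 9 tested oligodendrocyte markers. Of the red cell markers, Hba-a1 and Hba-a2 had the same level in every library and are not independent. The part of these cells in these levels was not tested.

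**Figure D2:**
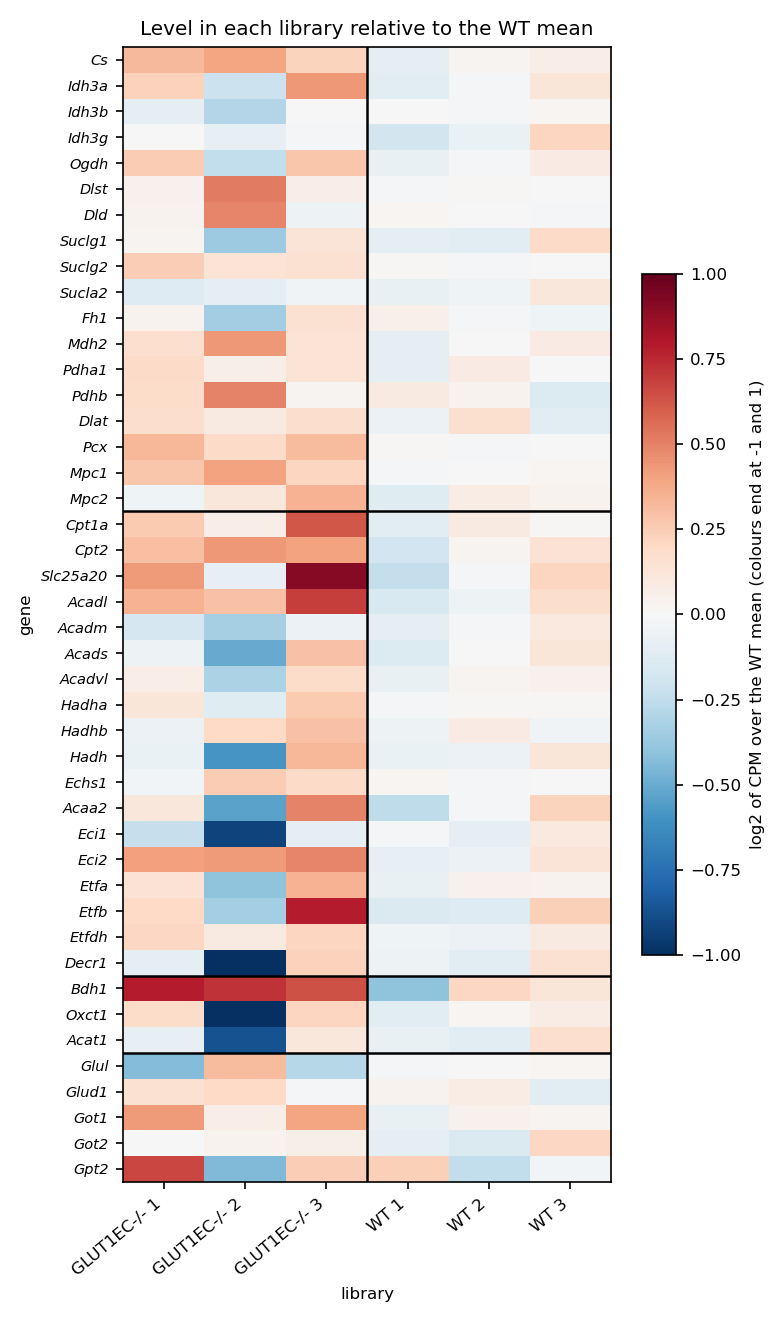
Level of each fuel gene in each of the 6 libraries as log2 of its CPM over the mean of the 3 WT libraries; rows run by fuel (black lines) in the order pyruvate and TCA, beta-oxidation, ketone bodies, glutamine. GLUT1EC-/- library 2 is low for Oxct1, Acat1, Eci1, Decr1 and Hadh and high for Dlst and Dld, and GLUT1EC-/- library 3 is the highest of the 6 for 14 of the 18 beta-oxidation genes.

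The promoters of Eci2 and Acadl are shown because they had the lowest p-values of the beta-oxidation genes, and the window of Hadhb because Hadha starts close by on the other strand. Each window runs from 250 bases before to 50 bases after the RefSeq start site (build GRCm38.p6), 5′ to 3′ on the gene's strand, with CCAAT and GGGCGG on either strand in capitals. They cover chr13:34994095-34994394 on the minus strand for Eci2, chr1:66863260-66863559 on the minus strand for Acadl and chr5:30155003-30155302 on the plus strand for Hadhb. The RefSeq start site of Eci2 used here, at 34994144, lies inside the longer gene model of GENCODE given above.
Eci2: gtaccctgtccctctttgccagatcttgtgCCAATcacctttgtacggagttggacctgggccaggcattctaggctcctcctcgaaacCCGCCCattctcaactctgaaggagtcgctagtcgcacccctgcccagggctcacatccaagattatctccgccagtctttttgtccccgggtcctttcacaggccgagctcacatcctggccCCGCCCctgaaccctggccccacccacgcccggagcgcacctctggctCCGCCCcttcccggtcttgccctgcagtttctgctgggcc
Acadl: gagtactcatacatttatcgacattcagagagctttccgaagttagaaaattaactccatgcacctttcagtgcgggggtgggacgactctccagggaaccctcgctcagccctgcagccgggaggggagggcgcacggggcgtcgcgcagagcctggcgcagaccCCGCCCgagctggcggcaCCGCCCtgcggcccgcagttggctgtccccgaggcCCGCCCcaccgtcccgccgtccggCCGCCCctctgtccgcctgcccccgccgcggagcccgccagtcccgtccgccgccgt
Hadhb: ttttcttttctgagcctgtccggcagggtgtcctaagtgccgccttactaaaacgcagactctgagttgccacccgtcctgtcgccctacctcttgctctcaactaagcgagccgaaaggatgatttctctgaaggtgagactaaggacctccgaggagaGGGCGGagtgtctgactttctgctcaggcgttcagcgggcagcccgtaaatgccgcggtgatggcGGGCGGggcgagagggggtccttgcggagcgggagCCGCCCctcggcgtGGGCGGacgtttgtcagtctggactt
The Eci2 window holds 1 CCAAT and 3 GGGCGG matches, and those of Acadl and Hadhb hold 0 CCAAT and 4 GGGCGG matches each. RefSeq windows were at hand for 40 of the 44 members and for 10432 of the genes tested. GGGCGG, the GC box bound by Sp factors, was in 29 of the 40 members' windows (72.5%) and in 66.8% of those of all tested genes. CCAAT, bound by NF-Y, was in 18 (45%, against 42.6%). The half-site AAGGTCA, read by estrogen-related receptors, was in 3, those of Ogdh, Acadm and Got1 (7.50%, against 4.05%). None of the motifs searched contains another. None of the 3 printed windows holds this half-site.

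Ketone bodies are oxidised in steps by Bdh1, Oxct1 and Acat1, and the 3 estimates differed in sign. Bdh1, the mitochondrial 3-hydroxybutyrate dehydrogenase (chromosome 16, 31422280 to 31458901, plus strand, 7 exons), had 5.07, 4.84 and 4.58 CPM in GLUT1EC-/- libraries, against 2.23, 3.39 and 3.20 CPM in WT libraries. The groups did not overlap, at 72 to 194 counts per library. The log2 fold change of 0.71 (SE 0.25, 95% interval 0.15 to 1.28) was the largest of the 44 genes, with an adjusted p of 0.234 by edgeR. It was 0.88 within the 200s and 0.55 within the 500s.

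Oxct1, which activates acetoacetate with succinyl-CoA (chromosome 15, 4026383 to 4155344, plus strand, 17 exons), had 61.8, 14.7 and 63.0 CPM in GLUT1EC-/- libraries, against 50.6, 55.2 and 57.4 CPM in WT libraries. GLUT1EC-/- library 2 was far below the other 5, at 0.270 of the WT mean, while GLUT1EC-/- libraries 1 and 3 were above every WT library. The estimate was therefore -0.23 with an SE of 0.45 (95% interval -1.26 to 0.81, adjusted p = 0.847 by edgeR), the widest interval of the 44, and 0.19 without GLUT1EC-/- library 2 (edgeR adjusted p = 0.342).

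Acat1, the thiolase that splits acetoacetyl-CoA, had 42.6, 24.7 and 48.8 CPM in GLUT1EC-/- libraries and 42.9, 41.9 and 50.7 CPM in WT libraries. The same GLUT1EC-/- library 2 was the lowest, and the estimate of -0.22 became 0.01 without it. The median of the 3 ketone genes was -0.22 over all libraries, 0.19 without GLUT1EC-/- library 2, 0.23 within the 200s and -0.55 within the 500s.

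Glutamine synthetase (Glul), which makes glutamine from glutamate and ammonia, was the most abundant of the 44 mRNAs. Glul (chromosome 1, 153899944 to 153909723, plus strand, 7 exons) had 1845, 3091 and 2045 CPM in GLUT1EC-/- libraries, against 2459, 2485 and 2523 CPM in WT libraries. The WT libraries were nearly equal, while GLUT1EC-/- library 2 was the highest of the 6 and GLUT1EC-/- libraries 1 and 3 were below every WT library. The log2 fold change was -0.10 (SE 0.20, 95% interval -0.56 to 0.37, adjusted p = 0.854 by edgeR), and -0.36 without GLUT1EC-/- library 2 (edgeR adjusted p = 0.110). Astrocytes are the best-known source of Glul in brain. Among the astrocyte markers, Aqp4 was at most 1.54 CPM in every library. Slc1a2 was between 2.68 and 6.30 CPM in GLUT1EC-/- libraries, against 8.36 to 9.07 CPM in WT libraries. Gja1 was between 63.6 and 85.8 CPM in GLUT1EC-/- libraries and between 51.7 and 69.5 CPM in WT libraries. Fgfr3 was between 65.3 and 92.6 CPM in GLUT1EC-/- libraries, against 41.7 to 55.2 CPM in WT libraries. Of the 10 astrocyte markers 6 had positive and 4 negative estimates. Slc1a2 and Sox9 were lower without overlap (log2 fold changes -0.90 and -0.55, edgeR adjusted p = 0.225 and 0.080). Fgfr3 and Aldh1l1 were higher without overlap (log2 fold changes 0.65 and 0.59, edgeR adjusted p = 0.137 and 0.29), and Gfap was called higher. The part of astrocytes in the Glul levels was not tested.

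Glutamate leaves for the TCA cycle through glutamate dehydrogenase or by transamination. Glud1, the dehydrogenase (chromosome 14, 34310727 to 34345265, plus strand, 13 exons), had 248, 256 and 222 CPM in GLUT1EC-/- libraries and 229, 235 and 206 CPM in WT libraries (log2 fold change 0.12, SE 0.13, adjusted p = 0.714 by edgeR). Got1, the cytosolic aspartate aminotransferase, had 22.2, 17.3 and 21.7 CPM in GLUT1EC-/- libraries, against 15.7, 16.9 and 16.8 CPM in WT libraries. Got1 was without overlap, with a log2 fold change of 0.31 (adjusted p = 0.422 by edgeR, SE 0.15).

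Got2, its mitochondrial partner in the malate-aspartate shuttle, averaged 74.2 ± 1.51 CPM in GLUT1EC-/- libraries and 72.6 ± 9.95 CPM in WT libraries, an estimate of 0.03. Gpt2, the mitochondrial alanine aminotransferase, had 4.62, 2.15 and 3.47 CPM in GLUT1EC-/- libraries and 3.43, 2.45 and 2.86 CPM in WT libraries. Its groups overlapped (estimate 0.23, SE 0.33), and the estimate was -0.05 without GLUT1EC-/- library 1. The median of the 5 genes was 0.12, with 4 positive estimates (51.5% of all genes tested). This median was 0.12 within the 200s and -0.01 within the 500s.

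**Figure D3:**
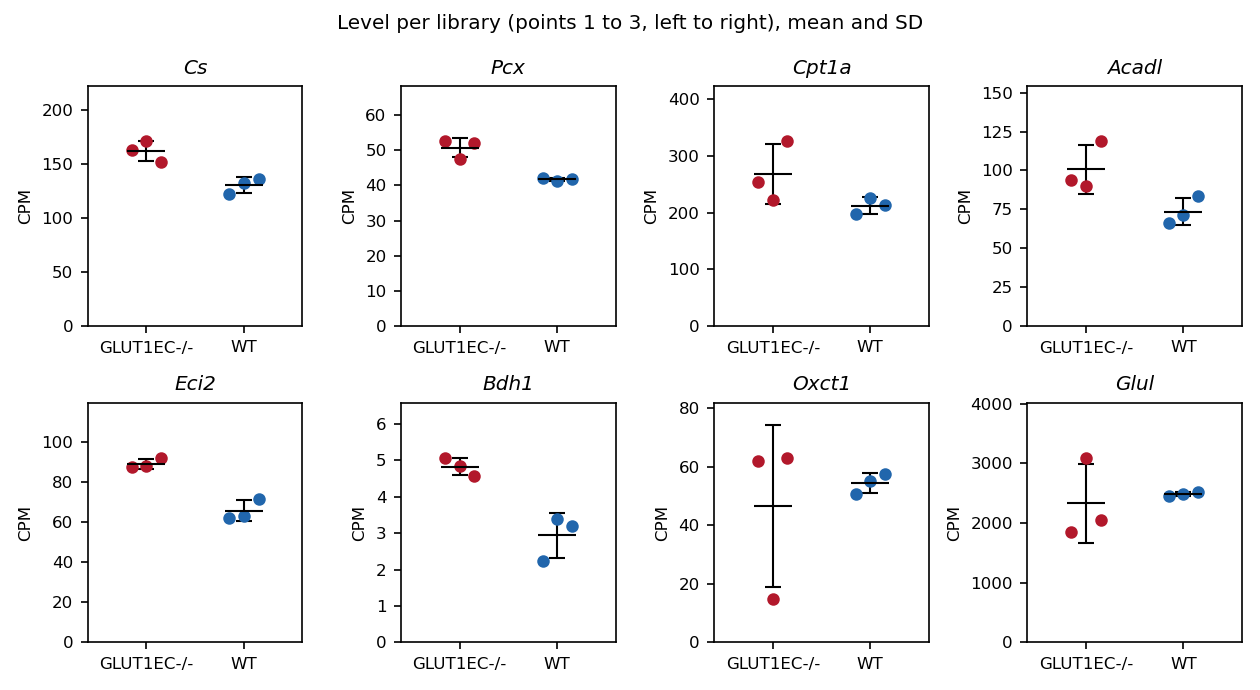
CPM of 8 fuel genes in the GLUT1EC-/- libraries (red) and the WT libraries (blue), 1 point per library in the order 1 to 3 from left to right, with the group mean (bar) and SD (whiskers, n = 3). Cs, Pcx, Acadl, Eci2 and Bdh1 show no overlap between the groups, Cpt1a overlaps, Oxct1 has GLUT1EC-/- library 2 at 14.7 CPM, and Glul has that library above all others.

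Levels of different genes can be compared only per length, here as CPM per kb of exon. On this scale Glul stood at 834 ± 240 CPM per kb in GLUT1EC-/- libraries and 892 ± 11.5 CPM per kb in WT libraries, far above all other members. Mdh2 was next, at 100.5 ± 11.8 CPM per kb in GLUT1EC-/- libraries and 84.4 ± 5.16 CPM per kb in WT libraries. Glud1 followed, at 71.5 ± 5.27 CPM per kb in GLUT1EC-/- libraries and 66.0 ± 4.47 CPM per kb in WT libraries. Ogdh, at 68.5 ± 13.0 CPM per kb in GLUT1EC-/- libraries and 63.3 ± 3.59 CPM per kb in WT libraries, did not differ from Glud1 beyond their spread. Cpt1a, the first of the beta-oxidation genes on this scale, stood at 62.0 ± 12.3 CPM per kb in GLUT1EC-/- libraries and 49.1 ± 3.42 CPM per kb in WT libraries. At the other end stood Bdh1, with 1.32 ± 0.0671 CPM per kb in GLUT1EC-/- libraries and 0.806 ± 0.171 CPM per kb in WT libraries, and Gpt2, with 0.938 ± 0.340 CPM per kb in GLUT1EC-/- libraries and 0.801 ± 0.135 CPM per kb in WT libraries. Bdh1 thus lay well below the enzymes that follow it in the route from 3-hydroxybutyrate. Oxct1 stood at 13.2 ± 7.82 CPM per kb in GLUT1EC-/- libraries and 15.4 ± 0.984 CPM per kb in WT libraries, and Acat1 at 11.4 ± 3.69 CPM per kb in GLUT1EC-/- libraries and 13.3 ± 1.41 CPM per kb in WT libraries.

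**Figure D4:**
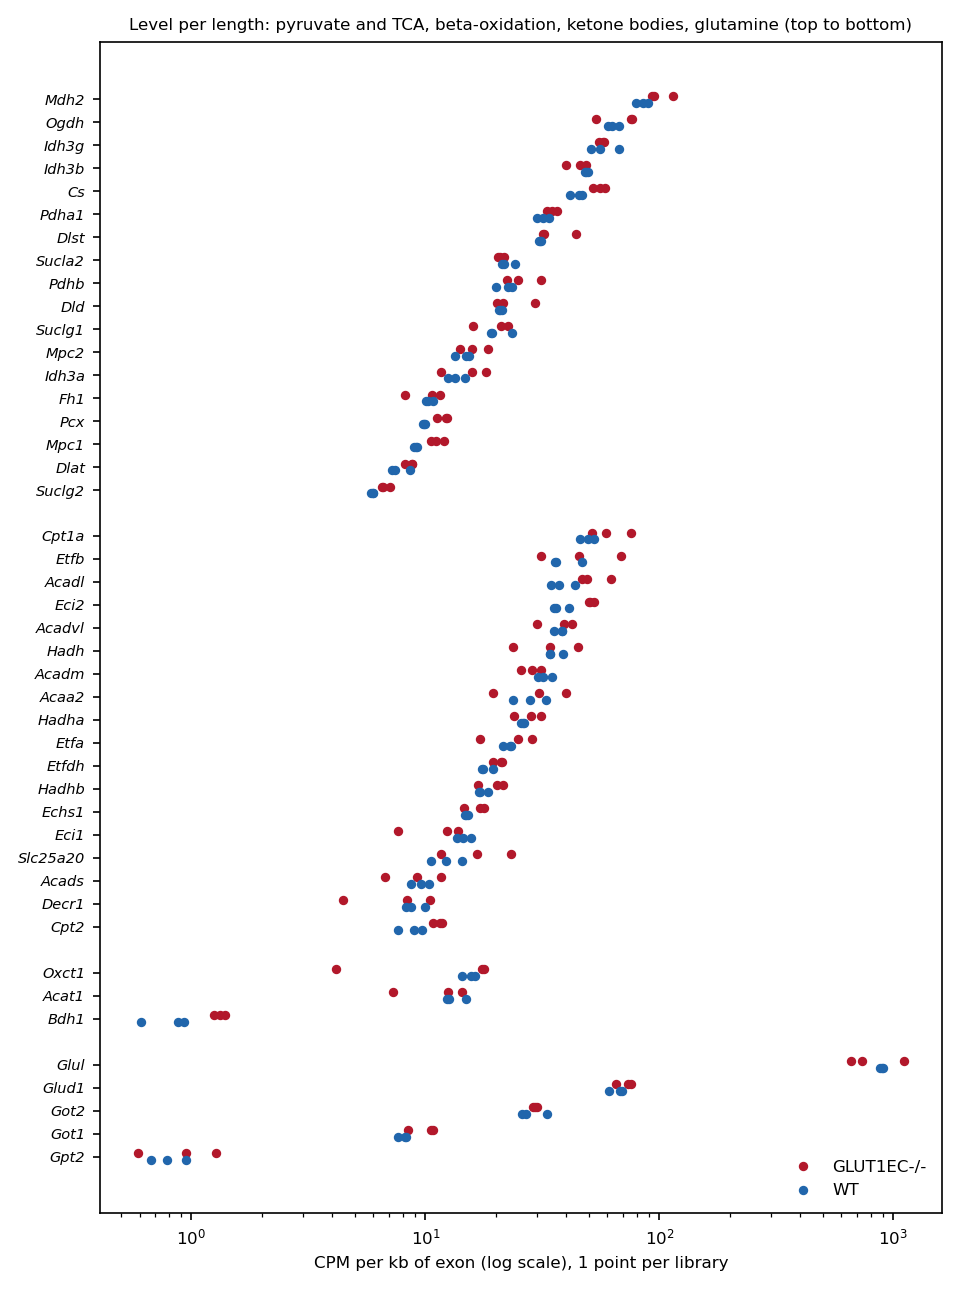
CPM per kb of exon (log scale) of the 44 fuel genes in each GLUT1EC-/- library (red, upper of each pair of rows) and each WT library (blue, lower), by fuel and ordered by the WT mean. Glul lies near 834 (GLUT1EC-/-) and 892 (WT) CPM per kb, and Bdh1 and Gpt2 lie near or below 1.32 CPM per kb.

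A wider set of 101 genes of the same routes was read beside the 44, and 99 of them could be tested. The 2 too low to test were Csl and Oxct2a. edgeR called 1 of the 99 (1.31% of all genes tested were called), Acsl3, which activates long-chain fatty acids to acyl-CoA. Acsl3 (chromosome 1, 78657825 to 78707743, plus strand, 16 exons) had 51.0, 54.9 and 46.4 CPM in GLUT1EC-/- libraries, against 90.0, 88.2 and 83.5 CPM in WT libraries. It fell to a fold of 0.582 (95% interval 0.479 to 0.708), a log2 fold change of -0.78 (adjusted p = 0.0296 by edgeR, SE 0.12). Over the alternative fits the adjusted p ran between 6e-06 and 0.199. The call was lost without GLUT1EC-/- library 1 (edgeR adjusted p = 0.110), without each WT library in turn and with the number series as a term (edgeR adjusted p = 0.115). Of its exon positions, 5.2% are shared with Utp14b on the same strand.

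By fuel, 0 of the 28 tested genes of the wider pyruvate and TCA list were called by edgeR (3 higher and 1 lower at an unadjusted p under 0.05), 1 of 34 for fatty acids (Acsl3, with 0 higher at an unadjusted p under 0.05), 0 of 11 for ketone bodies (1 higher) and 0 of 26 for glutamine (2 higher). Over the 99 genes, 6 were higher and 2 lower at that threshold, beside 8.16% higher and 6.31% lower of all genes tested. Median log2 fold changes were 0.08, -0.03, 0.17 and 0.06 in the same order of lists, against 0.01 over all genes. Of the most abundant genes of these lists, Sdha (succinate dehydrogenase) was estimated at -0.16 and Acly (ATP citrate lyase) at -0.07. Acacb, the acetyl-CoA carboxylase whose product restrains Cpt1a, was estimated at 0.23 (0.11 without GLUT1EC-/- library 3) and the nuclear receptor Ppard at 0.34 (-0.12 without GLUT1EC-/- library 2). None of these 4 passed the test.

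Slc16a1, the monocarboxylate carrier of the barrier, which also takes ketone bodies, had 552, 330 and 549 CPM in GLUT1EC-/- libraries and 360, 434 and 424 CPM in WT libraries. GLUT1EC-/- library 2 was the lowest of the 6 and the other GLUT1EC-/- libraries were the highest (log2 fold change 0.23, adjusted p = 0.655 by edgeR, SE 0.21). Hmgcs1, the cytosolic synthase of the sterol pathway, was estimated at -0.0016.

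Among glutamine carriers, Slc38a3 had 478, 368 and 490 CPM in GLUT1EC-/- libraries, against 575, 523 and 582 CPM in WT libraries. The groups did not overlap, and the log2 fold change was -0.33 (adjusted p = 0.376 by edgeR, SE 0.15). Slc38a2 and Slc7a5, the most abundant carriers of that list, were estimated at 0.04 (-0.11 without GLUT1EC-/- library 2) and 0.15, neither past the test.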

How the data were processed

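Per the labels' protocols, the authors lysed bead-sorted brain endothelial cells directly, made stranded TruSeq mRNA libraries and read them on a NovaSeq as single-end reads. Per the submitters' processing notes, they used STAR, featureCounts and the build GRCm38. Tool versions, annotation, strand setting and filters are not given in the sources used here. Values as deposited are raw counts per gene symbol, 1 file a library, as the file headers and whole-number values show. A strand setting would decide the counts of genes that overlap on opposite strands.

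Samples were grouped by the genotype label, 3 against 3, and not paired, because replicate numbers follow the order of the samples. Animal numbers fall into a 200s series (GLUT1EC-/- library 1, WT libraries 1 and 2) and a 500s series (GLUT1EC-/- libraries 2 and 3, WT library 3). The meaning of these series is not given. Values within a series are differences of mean log2 CPM without a test, with a single library in 1 group. Genes were tested with edgeR 4.0.16 (quasi-likelihood F test, robust, R 4.3.3) on the 6 libraries, with genotype as sole factor, TMM scaling and filterByExpr (minimum count 10, total 15). Benjamini-Hochberg adjustment ran over 14838 genes at a threshold of 0.05, with a biological coefficient of variation of 23.2%. The SE is the estimate over the root of F, and 95% intervals use its t distribution over the moderated degrees of freedom. The scripts were tested on simulated data. There edgeR recovered 17.9% of the genes changed 1.5-fold and 62.7% of those changed 2-fold, so small changes would mostly be missed. Of the calls on simulated data, 8.53% by edgeR and 17.2% by DESeq2 were false. No simulated library was made to stand apart as GLUT1EC-/- library 2 did, so these rates may not hold for the real libraries. Alternatives were DESeq2 1.42.0, limma-voom (limma 3.58.1), other scalings and filters, the number series as a term, and each library left out.

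Coordinates, exon lengths (union of coding transcripts) and overlaps come from GENCODE M21 on GRCm38, and promoter windows from RefSeq on GRCm38.p6. Named were all 44 members, the called and the 3 most abundant genes of each wider list, Slc2a1, and cell markers; some of these are not reported here. Members and lists were chosen with earlier results of these data known. Intervals cover variation between these animals and counting error only. Reads carry no molecular identifiers.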

Additional observations from a re-analysis of the deposited data

How the results depend on the processing

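The number of all genes called was 194, 879 by DESeq2, 14 with the number series as a term and 429 at an adjusted p of 0.1. Leaving out 1 library gave 0 to 862 calls: 862 without GLUT1EC-/- library 2, 32 without GLUT1EC-/- library 1, 0 without WT library 1 (edgeR, 1248 at an unadjusted p under 0.05), 1 without WT library 2 and 5 without WT library 3. The cause was not tested. Of the 44 members, 0 were called, 1 by DESeq2 (Eci2), and 0 to 1 with 1 library left out. Of the wider lists, 1 gene was called, 2 by DESeq2 and at an adjusted p of 0.1, 0 with the number series and 0 to 2 with 1 library left out, the added gene in each case being Psat1, named after its values were seen (log2 fold change 1.19, edgeR adjusted p = 0.0900). The median of the pyruvate and TCA genes was 0.11 with library size alone as scaling and 0.11 to 0.17 with 1 library left out. That of the glutamine genes was 0.063 with library size alone, 0.15 with the number series and 0.048 to 0.17 with 1 library left out. The median of the beta-oxidation genes was -0.02 to 0.20 and that of the ketone genes -0.43 to 0.19 with 1 library left out. With library size alone the median of all genes was -0.03, against 0.01. The sign of the estimate held in all 13 alternative fits for 28 of the 44 members, and 9 members changed sign without GLUT1EC-/- library 2. The counts of members without overlap when GLUT1EC-/- library 2 or 3 was left out were chosen after seeing the data. No paired analysis was possible because the labels carry no replicate numbers that tie a GLUT1EC-/- animal to a WT animal. Counts of the members ran between 72 and 103475 a library, lowest for Bdh1 and Gpt2, where depth limits the estimate most.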
